A study of Mus musculus with 9 samples.

Results

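The genes described are 10 genes of granulocyte and monocyte development, read by symbol from a table of 49585 genes in 9 bulk RNA-seq libraries. They are 4 transcription factors (Gfi1, Cebpa, Spi1 and Irf8), 4 genes of granule and lysosome proteins (Mpo, Ctsg, Lyz2 and Cst7) and 2 surface genes (Cd33 and Csf2rb). All 10 had a row, and all 10 were among the 11619 genes with enough counts to test. The cells were wild-type C57BL/6 mouse bone marrow haematopoietic stem cells (HSCs) of the CD34-CD150+KSL phenotype, expanded in F12 medium with 0.1% polyvinyl alcohol, thrombopoietin at 100 ng/ml and stem cell factor at 10 ng/ml. KSL stands for cells that carry Kit and Sca-1 and lack lineage markers. Expanded cells were sorted into 3 populations with 3 libraries each, namely CD201+CD150+CD48-KSL (CD201+CD48- below), CD201+CD150+CD48+KSL (CD201+CD48+) and CD201-KSL (CD201-). CD201 is a receptor enriched on HSCs, and CD48 is a surface protein gained on leaving the HSC state. All groups shared the same genotype, medium and starting phenotype, and the mice's age is not stated in the sources used here. For the CD201- population, the titles give a gate of CD150+CD48+ as well, which the treatment label lacks. The culture time is 10 days in the design text and a week in the growth protocol.

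Commitment to the granulocyte and monocyte lineages depends on a small set of transcription factors. Spi1 encodes PU.1, an ETS family factor needed for myeloid and lymphoid cells, and Cebpa encodes C/EBPα, needed to form granulocyte-monocyte progenitors. Gfi1 encodes a zinc finger repressor that favours granulocytes over monocytes and also restrains HSC proliferation, while Irf8 encodes a factor of monocytes and dendritic cells. Progenitors then transcribe genes of the primary granules, including myeloperoxidase and neutrophil serine proteases, and low transcription of such genes in cells that are still multipotent is called lineage priming.

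Library totals ranged from 3810123 to 7072885 counts, and 13663 to 17845 genes had at least 1 count. Procr, which encodes CD201, averaged 63.2 ± 3.74, 26.5 ± 2.16 and 3.56 ± 1.07 CPM (counts scaled to a library of 1000000) in CD201+CD48-, CD201+CD48+ and CD201- cells, and Cd48 averaged 5.86 ± 0.671, 83.3 ± 7.22 and 124.7 ± 4.25 CPM (SD, n = 3 each), so both transcripts followed the gates. CD201- replicate 3 stood apart: 584 genes in it departed over 2-fold from the average of the other libraries of its group, against 233 for replicate 1 and 233 for replicate 2, each measured the same way. Whether replicates came from separate cultures or animals is not stated, and p-values therefore cover only the spread among these libraries, possibly technical. In bulk RNA, fewer cells of a type and less RNA per cell cannot be told apart.

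The members split in opposite directions between CD201+CD48- and CD201- cells, and both the factors and the granule genes were divided. Against CD201- cells, CD201+CD48- cells had more Gfi1, Spi1, Lyz2, Cd33 and Csf2rb and less Cebpa, Mpo, Ctsg and Cst7. That is 5 of 10 members higher and 4 lower (edgeR quasi-likelihood test, Benjamini-Hochberg adjusted over all genes, threshold 0.05), where 24.2% of all tested genes were called higher and 23.9% lower. The CPM of the groups did not overlap for 10 of 10 members, against 55.2% of tested genes. Between CD201+CD48+ and CD201- cells, 3 members were higher (Gfi1, Lyz2 and Cd33) and 4 lower (Cebpa, Mpo, Ctsg and Cst7), beside 14.8% and 14.3% of tested genes. Groups did not overlap for 7 of 10 members there, against 41.7% of tested genes. Within the CD201+ gate, CD201+CD48- cells had more Gfi1, Lyz2 and Csf2rb and less Mpo, 3 members higher and 1 lower, beside 9.05% and 6.31% of tested genes, and 6 of 10 members did not overlap, against 40.7%. Each population enters 2 of the 3 comparisons, so these share libraries. Mpo, Ctsg and Cd33 passed the count filter only through groups where they were high, so the counts of members called or not overlapping are descriptions. Without CD201- replicate 3, the number of members called was 9, 7 and 5 in the same order. Calls over all genes rose as well. With all libraries they were 2807 higher and 2778 lower, 1723 and 1661, and 1052 and 733. Without that library they were 2981 and 3042, 2109 and 2099, and 1787 and 1687.

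By role, the 4 factors had a median log2 fold change of 0.48 between CD201+CD48- and CD201- cells, with 2 higher, 1 lower and 1 that did not pass. The 4 granule genes had a median of −3.19, with 1 higher and 3 lower, and both receptors were higher with a median of 1.99. The median over all tested genes was 0.0032. Between CD201+CD48+ and CD201- cells the medians were 0.27 for the factors, −2.73 for the granule genes and 1.62 for the receptors, and between the CD201+ populations they were 0.20, −0.46 and 0.37. Mpo and Ctsg reached the count filter, about 1.92 CPM, only in CD201- libraries, and Cd33 only in CD201+ libraries, so these genes could enter the test only through the groups where they were high. The medians and counts by role are therefore descriptions.

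**Figure D1:**
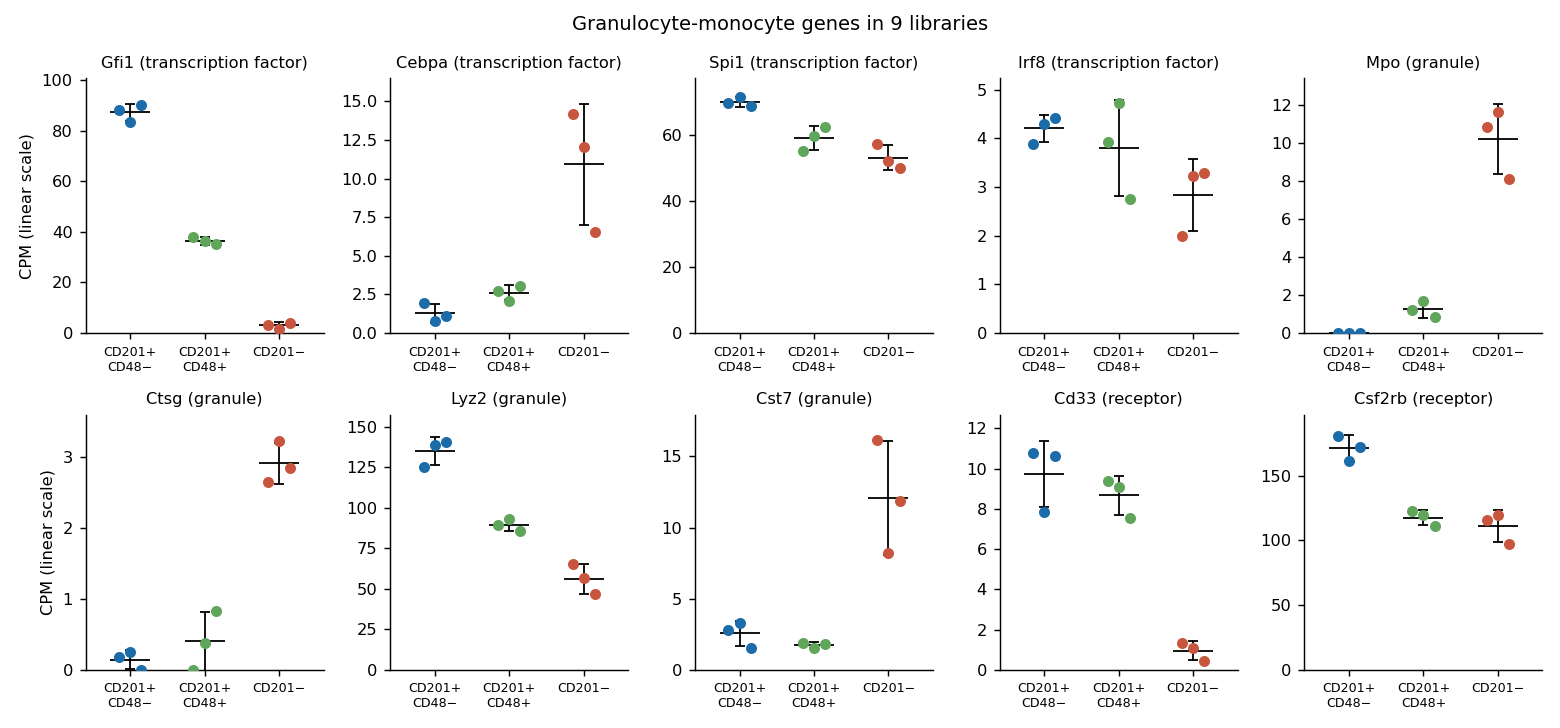
CPM of each of the 10 genes in the 9 libraries, on a linear axis that starts at 0 and differs between panels, with one point per library and the mean ± SD of each population. Gfi1 lies between 83.6 and 90.1 CPM in CD201+CD48- libraries and between 1.72 and 4.16 in CD201- libraries, while Mpo is at 0 in the former and between 8.11 and 11.6 in the latter.

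Among the factors, Gfi1 (chromosome 5, 107716655 to 107725805, mm10) showed the widest separation. It was at 88.1, 83.6 and 90.1 CPM in the CD201+CD48- libraries, 37.9, 36.3 and 35.1 in the CD201+CD48+ libraries and 3.10, 1.72 and 4.16 in the CD201- libraries. The groups did not overlap, and CD201+CD48+ lay between the others. Its log2 fold change was 4.86 ± 0.17 between CD201+CD48- and CD201- cells (SE, edgeR adjusted p = 9.85e-12), 3.60 ± 0.18 for CD201+CD48+ against CD201- cells (edgeR adjusted p = 3.19e-09) and 1.26 ± 0.11 between the CD201+ populations (edgeR adjusted p = 1.14e-06). Gfi1 ranked 10 by p among all tested genes in the first of these comparisons.

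Cebpa (chromosome 7, 35119293 to 35121928) ran the other way at a much lower level. It had 11, 3 and 5 counts in the CD201+CD48- libraries, 16, 11 and 22 in those of CD201+CD48+ and 64, 56 and 30 in those of CD201-. The CD201- libraries stood above all others, and the lowest of them was the library that stood apart. Cebpa had a log2 fold change of −3.01 ± 0.38 in CD201+CD48- against CD201- cells (edgeR adjusted p = 1.11e-05) and of −2.03 ± 0.31 in CD201+CD48+ against CD201- cells (edgeR adjusted p = 2.00e-04). Between the CD201+ populations the value was −0.98 ± 0.46 and did not pass (edgeR adjusted p = 0.183).

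Spi1 (chromosome 2, 91082374 to 91115759) was well expressed in every library and varied little. CD201+CD48- libraries had 69.7, 71.8 and 68.9 CPM, CD201+CD48+ libraries 55.2, 59.7 and 62.6, and CD201- libraries 57.3, 52.1 and 50.0. Those of CD201+CD48- were above the rest, and the other populations overlapped. The log2 fold change was 0.40 ± 0.09 between CD201+CD48- and CD201- cells (edgeR adjusted p = 0.00162), 0.16 ± 0.09 for CD201+CD48+ against CD201- cells (edgeR adjusted p = 0.196) and 0.24 ± 0.09 between the CD201+ populations (edgeR adjusted p = 0.0708). The last of these passed when only the libraries compared were fitted or without CD201- replicate 3, with adjusted p from 0.0179 to 0.209 over all alternatives.

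Irf8 (chromosome 8, 120736358 to 120756694) was scarce in all populations. The libraries held 22, 17 and 20 counts in CD201+CD48-, 23, 25 and 20 in CD201+CD48+ and 9, 15 and 15 in CD201- cells. The log2 fold changes, 0.55 ± 0.32 and 0.39 ± 0.31 against CD201- cells and 0.16 ± 0.29 between the CD201+ populations, did not pass (edgeR adjusted p = 0.166, 0.374 and 0.766). Counts this low leave a wide error, and the absence of a call does not show equal levels.

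Ratios within a library need no scaling between libraries and set the factors against each other. Gfi1 counts exceeded Cebpa counts by a log2 ratio of 5.50, 6.79 and 6.35 in CD201+CD48- libraries and 3.79, 4.13 and 3.54 in CD201+CD48+ libraries. In CD201- libraries the ratio was −2.19, −2.81 and −0.66, so there Cebpa had the more counts of the pair in every library. The log2 ratio of Spi1 to Cebpa counts fell along the same order, with means of 5.90 ± 0.70, 4.52 ± 0.28 and 2.35 ± 0.50, and that of Irf8 to Cebpa was 1.83 ± 0.76, 0.52 ± 0.66 and −1.91 ± 0.92 (SD, n = 3 each). For Irf8 to Cebpa the CD201+ populations overlapped, with a CD201+CD48- library at 1.00 and a CD201+CD48+ library at 1.18. Cebpa counts as low as 3 in a CD201+CD48- library limit all ratios to Cebpa. The Gfi1 to Spi1 ratio averaged 0.32 ± 0.09, −0.70 ± 0.15 and −4.24 ± 0.67.

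**Figure D2:**
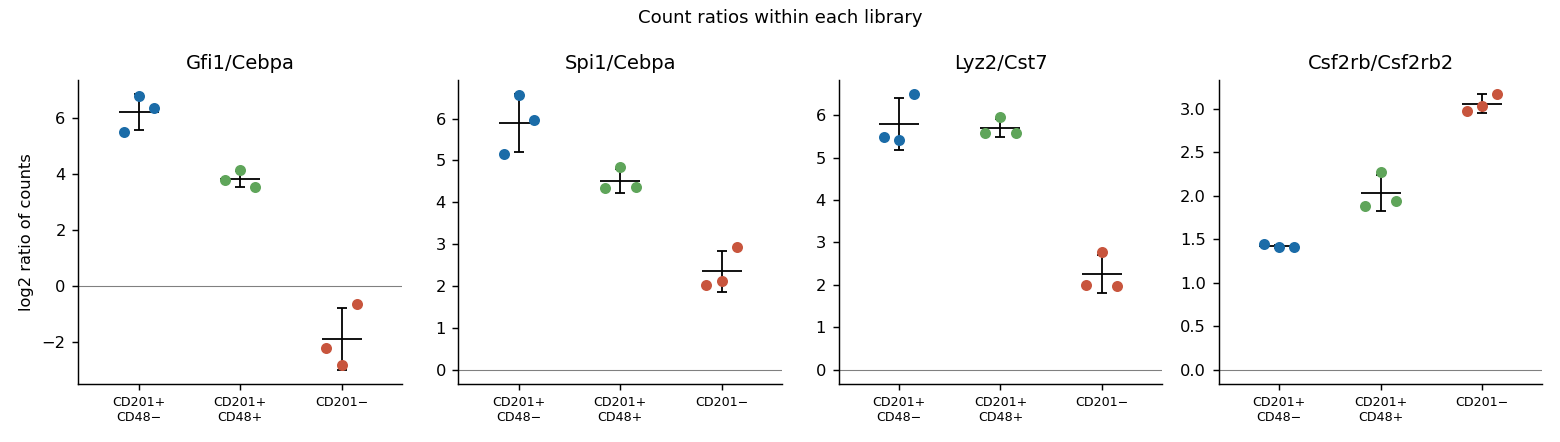
Log2 ratio of the counts of paired genes within each library, with one point per library and the mean ± SD of each population. The ratio of Gfi1 to Cebpa is above 0 in the 6 CD201+ libraries and below 0 in the 3 CD201- libraries, and the 9 libraries order by population in the ratio of Csf2rb to Csf2rb2.

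The granule genes are shown first by a shared letter pattern near their starts. Of the 10 genes, 8 matched the RefSeq promoter table of GRCm38.p6 (the mm10 assembly), and Spi1 and Csf2rb did not. The 250 bases before each start were searched on both strands for AGGAAGT, a purine-rich core of the kind bound by ETS factors such as PU.1. It occurred upstream of Mpo, Ctsg, Lyz2 and Cst7 and was not found in the windows of Gfi1, Cebpa, Irf8 and Cd33, and 7.69% of 32851 promoters in the table hold it. It also occurs upstream of Lyz1, which had few counts. In the same windows, a C/EBP-like pattern (TTNNGNAA, in 36.8% of promoters) occurred at Gfi1, Lyz2 and Cst7, a RUNX core (TGTGGT, 14.0%) at Ctsg, Lyz2, Cst7 and Cd33, and a GFI1 core (AAATCA, 12.4%) at Irf8, so these did not follow the roles. AGGAAGT was chosen with the sequences in view, and a match is a description of letters, not of binding. Each site is given with 11 bases on either side, on the strand of its gene, with the motif in capitals.
Mpo: tggagagagagAGGAAGTtgcctttgtcc
Ctsg: agaggaagaaaAGGAAGTagtcacctgtt
Lyz2: gatcggtaggaACTTCCTgttttgcacac
Cst7: aacttctttaaAGGAAGTggttgctcttg
The Mpo site lies at chr11:87793550-87793578 (plus strand), the Ctsg site at chr14:56102763-56102791 (minus strand), the Lyz2 site at chr10:117282355-117282383 (minus strand, with the motif on the opposite strand) and the Cst7 site at chr2:150570341-150570369 (plus strand). The first base of the motif is at −223, −206, −100 and −63 from the start, in the same order. These 4 genes thus share the letters although Lyz2 was higher, and the other genes lower, in CD201+CD48- than in the CD201- cells.

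Mpo (chromosome 11, 87793784 to 87804412), which encodes myeloperoxidase, the peroxidase of primary granules, had 0 counts in all 3 CD201+CD48- libraries. There were 7, 9 and 6 in the CD201+CD48+ libraries and 49, 54 and 37 in the CD201- ones. The 3 populations did not overlap. No CD201+ library of Mpo reached the count filter, so it could be tested only through the CD201- group, where it was high. With a floor of 3 counts over the group, Mpo was at least 48.1-fold lower in CD201+CD48- than in the CD201- cells (edgeR adjusted p = 3.69e-07) and at least 5.63-fold lower than in CD201+CD48+ cells (edgeR adjusted p = 0.00442). In CD201+CD48+ against CD201- cells the log2 fold change was −3.06 ± 0.32 (edgeR adjusted p = 1.32e-05). Mpo overlaps the annotated gene Gm34064, a symbol without a row in the table, and use of strand in counting is not stated.

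Ctsg (chromosome 14, 56099885 to 56102574) encodes cathepsin G, a serine protease of the same granules. Its counts were 1, 1 and 0 in CD201+CD48-, 0, 2 and 6 in CD201+CD48+ and 12, 15 and 13 in CD201- libraries, the only ones above 10. The summed 2 counts of CD201+CD48- against 40 of CD201- cells gave a 20.6-fold difference with a 95% counting interval from 5.34 to 175.9 (edgeR adjusted p = 3.46e-04). In CD201+CD48+ against CD201- cells the log2 fold change was −2.69 ± 0.57 (edgeR adjusted p = 0.00253). It was −3.84 without CD201+CD48+ replicate 3, the library that held 6 of the 8 counts of its group. Between the CD201+ populations the difference, 2 against 8 counts, had a ratio of 3.07 with an interval from 0.613 to 29.7 and did not pass (edgeR adjusted p = 0.415). As for Mpo, no CD201+ library of Ctsg reached the count filter, so it could be tested only through the CD201- group, where it was high.

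The Ctsg locus also holds granzyme and mast cell protease genes. Of 12 protein-coding genes within 150 kb of Ctsg, 8 had 0 counts in all libraries. Mcpt8, a basophil protease gene 14386 bp away, had 0, 1 and 13 summed counts in CD201+CD48-, CD201+CD48+ and CD201- cells, and Gzmc, a granzyme gene, had 7, 1 and 34. The Mcpt8 counts of the CD201- libraries were 5, 8 and 0, and Mcpt8 was not tested.

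Cst7 (chromosome 2, 150570415 to 150578944) encodes cystatin F, an inhibitor of lysosomal cysteine proteases. Counts were 16, 13 and 7 in CD201+CD48- libraries, 11, 8 and 13 in CD201+CD48+ libraries and 73, 38 and 54 in CD201- libraries. The CD201- libraries were above the rest, and the CD201+ populations overlapped. The log2 fold change against CD201- cells was −2.23 ± 0.31 for CD201+CD48- (edgeR adjusted p = 3.12e-05) and −2.78 ± 0.32 for CD201+CD48+ cells (edgeR adjusted p = 1.25e-05), and 0.55 ± 0.42 between the CD201+ populations (edgeR adjusted p = 0.429). Mpo and Cst7 thus differed in order, since the former was higher in CD201+CD48+ than in CD201+CD48- cells.

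Lyz2 (chromosome 10, 117277541 to 117282272), which encodes lysozyme M of neutrophils and macrophages, was the granule gene with the opposite direction. It was at 125, 139 and 141 CPM in CD201+CD48- libraries, 89.2, 93.0 and 85.7 in CD201+CD48+ libraries and 65.1, 56.4 and 46.9 in CD201- libraries. The populations did not overlap. Its log2 fold change was 1.27 ± 0.10 between CD201+CD48- and CD201- cells (edgeR adjusted p = 1.18e-07), 0.67 ± 0.10 for CD201+CD48+ against CD201- cells (edgeR adjusted p = 2.11e-04) and 0.60 ± 0.10 between the CD201+ populations (edgeR adjusted p = 6.34e-04). The neighbouring paralog Lyz1 had 5, 10 and 8 summed counts and was not tested. Of the 36-base stretches in Lyz2 transcripts, as long as one read, 10.3% also occur in Lyz1 transcripts, so counts could be divided between them.

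**Figure D3:**
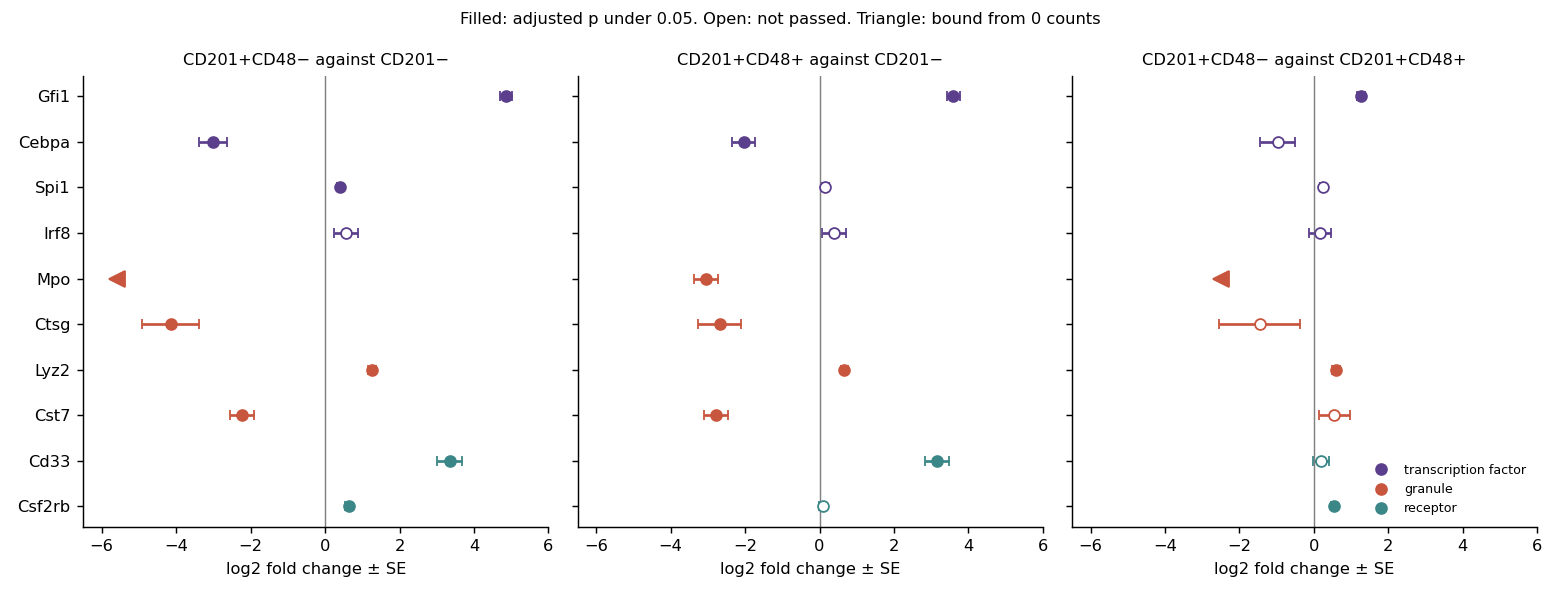
Log2 fold change ± SE of each member in the 3 comparisons, with filled points for adjusted p under 0.05, open points for genes that did not pass and triangles for bounds set by 0 counts. Gfi1 and Cd33 lie to the right of 0 and Cebpa, Mpo, Ctsg and Cst7 to the left in both comparisons with CD201- cells, while Lyz2 is to the right in all 3.

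Of the surface genes, Cd33 (chromosome 7, 43527399 to 43537424) encodes a sialic acid binding lectin of myeloid cells. Its libraries held 61, 31 and 48 counts in CD201+CD48-, 55, 48 and 55 in CD201+CD48+ and 6, 5 and 2 in CD201- cells. The CD201+ populations overlapped, and both were above CD201-. The log2 fold change against CD201- cells was 3.34 ± 0.33 for CD201+CD48- (edgeR adjusted p = 9.41e-07) and 3.15 ± 0.33 for CD201+CD48+ cells (edgeR adjusted p = 5.73e-06), and 0.19 ± 0.21 between the CD201+ populations (edgeR adjusted p = 0.599). No CD201- library of Cd33 reached the count filter, so it could be tested only through the CD201+ groups, where it was high.

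Csf2rb (chromosome 15, 78325800 to 78351001) encodes the common signalling chain of the receptors for GM-CSF, interleukin 3 and interleukin 5. It was at 181, 161 and 172 CPM in CD201+CD48- libraries, 122, 119 and 111 in CD201+CD48+ libraries and 116, 120 and 96.9 in CD201- libraries. CD201+CD48- was above the rest, which overlapped. The log2 fold change was 0.63 ± 0.09 between CD201+CD48- and CD201- cells (edgeR adjusted p = 2.89e-05), 0.08 ± 0.09 for CD201+CD48+ against CD201- cells (edgeR adjusted p = 0.510) and 0.55 ± 0.09 between the CD201+ populations (edgeR adjusted p = 4.75e-04).

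Csf2rb2, the mouse chain specific to interleukin 3, lies 20079 bp from Csf2rb and changed more. It averaged 63.9 ± 3.02, 29.0 ± 4.19 and 13.4 ± 2.31 CPM, with log2 fold changes of 2.25 ± 0.14 (edgeR adjusted p = 5.62e-09), 1.11 ± 0.15 (edgeR adjusted p = 4.83e-05) and 1.14 ± 0.12 (edgeR adjusted p = 1.05e-05) in the order used for Csf2rb. The ratio of Csf2rb to Csf2rb2 counts, a log2 mean of 1.42 ± 0.02, 2.03 ± 0.21 and 3.06 ± 0.11, did not overlap between populations. Of the 36-base stretches in Csf2rb transcripts 16.6% also occur in Csf2rb2 transcripts, and 25.2% the other way, so how the reads were divided is uncertain. Summed over both genes, the level was 235.4 ± 12.9, 146.6 ± 8.0 and 124.3 ± 14.6 CPM.

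Levels per kb of exon set genes beside each other, with each length taken over all annotated exons of a gene. Lengths came to 9266 nt for Cd33, and to 3325 nt for Lyz2 against 1273 nt for its paralog Lyz1. Which transcripts the cells made was not tested, so the order between genes depends on the annotation. In CD201+CD48- cells, Lyz2 had the highest level of the 10 members, at 40.6 CPM per kb, followed by Gfi1 at 27.4, Csf2rb at 23.6 and Spi1 at 23.2. Cst7 was at 1.84 and Cd33 at 1.05 CPM per kb, and Cebpa, Irf8, Ctsg and Mpo were below these. In CD201- cells the order was Spi1 at 17.6, Lyz2 at 16.9, Csf2rb at 15.2 and Cst7 at 8.69, ahead of Cebpa at 4.15, Mpo at 2.98 and Ctsg at 2.82. Gfi1, at 0.940 CPM per kb, fell among the lowest members there. Neighbours among the first 3 of that order, with SDs of 1.25, 2.73 and 1.69, differed by less than these spreads.

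**Figure D4:**
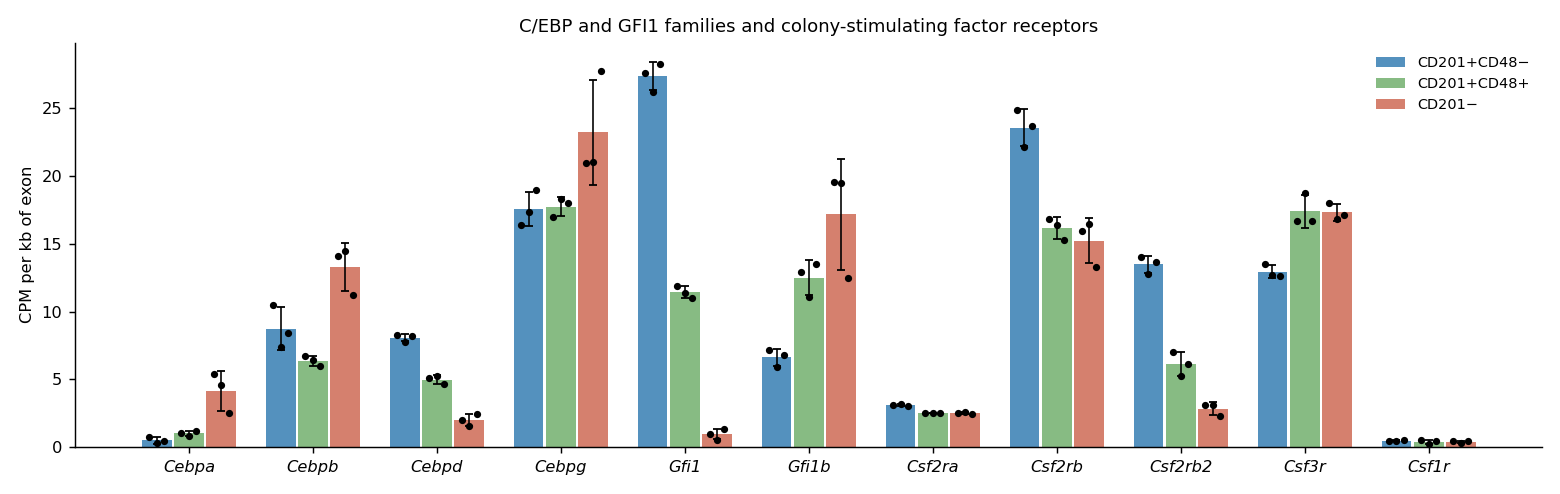
CPM per kb of exon of the C/EBP and GFI1 family genes and of colony-stimulating factor receptor genes, as mean ± SD bars from 0 with one point per library. Gfi1 is highest in CD201+CD48- cells at 27.4 and Gfi1b highest in CD201- cells at 17.2, and Cebpd falls from 8.05 to 2.01 while Cebpa rises from 0.481 to 4.15.

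Other factors of the same lineages were called in both directions, and members of 1 family could differ in direction. Of 22 further factors, 17 were tested, and between CD201+CD48- and CD201- cells 4 were higher and 5 lower, beside 24.2% and 23.9% of all tested genes, with a median log2 fold change of 0.04. In CD201+CD48+ against CD201- cells 2 were higher and 4 lower (all genes 14.8% and 14.3%, list median 0.06), and between the CD201+ populations 3 were higher and 1 lower (all genes 9.05% and 6.31%, list median 0.03). Cebpd, a C/EBP family gene induced by cytokines, averaged 30.2 ± 0.979, 18.6 ± 1.19 and 7.51 ± 1.70 CPM and had log2 fold changes of 2.01 ± 0.16, 1.31 ± 0.16 and 0.70 ± 0.13 (edgeR adjusted p = 7.32e-08, 2.81e-05 and 0.00178), opposite in direction to Cebpa. Cebpb, the C/EBP gene of emergency granulopoiesis, was lower in both CD201+ populations, with log2 fold changes of −0.58 ± 0.16 (edgeR adjusted p = 0.00806) and −1.07 ± 0.17 (edgeR adjusted p = 2.08e-04), the former lost when libraries were scaled by total count alone (edgeR adjusted p = 0.0665). Cebpg, a C/EBP member without an activation domain, was lower by less, with −0.40 ± 0.10 and −0.39 ± 0.10 (edgeR adjusted p = 0.00462 and 0.0101).

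Gfi1b, the paralog of Gfi1 that acts in erythroid cells and megakaryocytes, ran against Gfi1. It averaged 12.1 ± 1.13, 22.9 ± 2.35 and 31.5 ± 7.50 CPM, with a log2 fold change of −1.37 ± 0.18 between CD201+CD48- and CD201- cells (edgeR adjusted p = 1.65e-05) and −0.91 ± 0.18 between the CD201+ populations (edgeR adjusted p = 0.00283). The value of −0.45 ± 0.16 in CD201+CD48+ against CD201- cells (edgeR adjusted p = 0.0411) was lost in 13 of 18 alternatives, with adjusted p up to 0.182. No 36-base stretch was shared between transcripts of the pair. Id1, an inhibitor of helix-loop-helix factors, was lower in both CD201+ populations (−0.99 ± 0.17 and −0.92 ± 0.17, adjusted p = 3.06e-04 and 0.00100). Stat3, which transmits cytokine signals including those of G-CSF, was higher in CD201+CD48- cells than in CD201- (0.43 ± 0.07, adjusted p = 1.58e-04) and CD201+CD48+ cells (0.31 ± 0.07, adjusted p = 0.00821, and 0.0562 without CD201+CD48+ replicate 2). Zeb2, a zinc finger repressor of myeloid and dendritic cells, had 0.36 ± 0.08 between the CD201+ populations (edgeR adjusted p = 0.00873, and 0.0515 without CD201+CD48+ replicate 1).

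The wider granule and effector list was mostly below the count filter. Of 28 genes, 12 were tested, and between CD201+CD48- and CD201- cells 7 were higher and 2 lower, beside 24.2% and 23.9% of all genes (median log2 fold change 0.43). In CD201+CD48+ against CD201- cells 4 were higher and 0 lower in edgeR (0 lower at an unadjusted p under 0.05), beside 14.8% and 14.3% of all genes (median 0.19). Between the CD201+ populations 3 were higher and 1 lower, beside 9.05% and 6.31% (median 0.23). Of the 7 higher genes, 3 (Ctss, Ltf and Cybb) reached the count filter in no CD201- library, so they could be tested only through the CD201+ groups where they were high, and the counts are descriptions. Ctss, which encodes the lysosomal protease cathepsin S of antigen-presenting cells, averaged 16.8, 8.72 and 1.02 CPM and had log2 fold changes of 4.01 ± 0.28, 3.05 ± 0.31 and 0.96 ± 0.18 (edgeR adjusted p = 2.44e-08, 4.28e-06 and 0.00193). Gstm1, a glutathione transferase gene transcribed in early granulocyte progenitors, averaged 89.6, 58.9 and 19.0 CPM, with 2.24 ± 0.16, 1.63 ± 0.16 and 0.61 ± 0.14 (edgeR adjusted p = 5.87e-08, 5.62e-06 and 0.00762, the last 0.0523 without CD201+CD48- replicate 1). Ltf, the secondary granule gene of lactoferrin, averaged 8.16, 5.10 and 0.948 CPM, with 3.09 ± 0.42 and 2.38 ± 0.45 against CD201- cells (edgeR adjusted p = 2.34e-05 and 0.00105).

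Serpinb1a, an inhibitor of neutrophil serine proteases, followed the CD48 gate. It averaged 37.5, 81.2 and 75.5 CPM, and was lower in CD201+CD48- cells than in both CD201- (−1.01 ± 0.10, adjusted p = 5.51e-07) and CD201+CD48+ cells (−1.12 ± 0.09, adjusted p = 8.60e-07). Cyba, a subunit of the phagocyte oxidase, had log2 fold changes of 1.02 ± 0.15, 0.49 ± 0.16 and 0.53 ± 0.14 (edgeR adjusted p = 5.62e-05, 0.0262 and 0.0173), the last 2 each lost in 4 of 18 alternatives, with adjusted p up to 0.0785 and 0.0925. Prtn3, the proteinase 3 gene, was chosen for mention after its values were seen. It averaged 14.9 ± 2.91, 15.6 ± 0.905 and 15.9 ± 5.79 CPM and did not pass in any comparison (edgeR adjusted p = 0.791, 0.949 and 0.899), while Elane, the neutrophil elastase gene, had 0, 0 and 1 summed counts.

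Further receptors and surface genes were called in both directions. Of 24 genes 23 had a row and 16 were tested, and 6 were higher and 5 lower between CD201+CD48- and CD201- cells (all genes 24.2% and 23.9%, list median 0.26). The counts were 4 and 3 between CD201+CD48+ and CD201- cells (all genes 14.8% and 14.3%, list median 0.10), and 3 and 3 between the CD201+ populations (all genes 9.05% and 6.31%, list median 0.21). Siglecf, among the lower genes in both comparisons with CD201- cells, reached the count filter only in CD201- libraries. It could be tested only through the group where it was high, so these counts are descriptions. Il6ra, the interleukin 6 receptor gene, was higher in CD201+CD48- than in the CD201- cells (1.54 ± 0.17, adjusted p = 3.87e-06), as was Sirpa, a receptor for CD47 (1.01 ± 0.11, adjusted p = 1.82e-06). Sirpa was also higher in CD201+CD48+ than in the CD201- cells (0.77 ± 0.11, adjusted p = 7.74e-05), whereas the integrin gene Itgb2 was lower there (−0.51 ± 0.08, adjusted p = 3.38e-04).

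Csf3r, the G-CSF receptor gene, averaged 66.0, 88.7 and 88.4 CPM and was lower in CD201+CD48- cells than in CD201+CD48+ cells (−0.42 ± 0.08, adjusted p = 0.00227). Cd34 was likewise lower in CD201+CD48- cells, with −0.94 ± 0.07 against CD201- (edgeR adjusted p = 6.93e-08) and −1.10 ± 0.07 against CD201+CD48+ cells (edgeR adjusted p = 6.20e-08). Flt3, a receptor gene of multipotent progenitors, was highest in CD201+CD48+ cells, at 19.0, 36.5 and 10.3 CPM, with 1.81 ± 0.14 against CD201- cells (edgeR adjusted p = 1.69e-07). Its log2 fold change was −0.93 ± 0.12 in CD201+CD48- against CD201+CD48+ cells (edgeR adjusted p = 8.73e-05). Csf1r, the macrophage colony-stimulating factor receptor gene, stayed near 3 CPM, at 3.33 ± 0.187, 2.74 ± 1.23 and 2.85 ± 0.609, and was chosen for mention after its values were seen.

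A list of genes that textbooks give as repressed by GFI1, which includes Spi1 and Irf8, was set beside the level of Gfi1. Of 13 genes 12 were tested, with 6 higher and 2 lower between CD201+CD48- and CD201- cells (all genes 24.2% and 23.9%, list median 0.61). There were 5 and 2 between CD201+CD48+ and CD201- cells (all genes 14.8% and 14.3%, list median 0.33), and 3 and 1 between the CD201+ populations (all genes 9.05% and 6.31%, list median 0.26). Egr1, an immediate early factor that promotes monocytes, was higher with Gfi1 in all 3 comparisons (1.84 ± 0.17, 0.95 ± 0.18 and 0.89 ± 0.15, adjusted p = 3.93e-07, 9.64e-04 and 6.44e-04). Hoxa9, a homeobox gene of HSCs and progenitors, was higher in CD201+CD48- than in the CD201- cells, with 0.96 ± 0.11 (edgeR adjusted p = 4.74e-06). Cdkn1a, which encodes the cell cycle inhibitor p21, was lower in CD201+CD48+ than in the CD201- cells (−1.05 ± 0.15, adjusted p = 9.27e-05) and higher in CD201+CD48- than in CD201+CD48+ cells (0.78 ± 0.15, adjusted p = 0.00236). Gfi1b, also in this list, was lower in CD201+CD48- cells as described above.

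The genes whose pattern over the 9 libraries was most like that of Gfi1, by the root mean square difference in log2 CPM centred on each gene's mean, were Mmp16 (0.330), Myof (0.348), Tcf7l1 (0.362), Tspan7 (0.386) and Sorcs1 (0.446), out of 10955 genes compared. Myof, the most abundant of these, averaged 137.2, 45.3 and 3.93 CPM. Mmp16, Tcf7l1, Tspan7 and Sorcs1 had 10, 5, 4 and 12 summed counts in CD201- cells. They reached the count filter in no CD201- library, so they could enter only through the CD201+ groups where they were high. For Mpo the nearest were Fgf3 (0.511), Dnajc6 (0.618), Scin (0.718), Pdgfrb (0.765) and Bin1 (0.792), and Scin averaged 15.8, 22.7 and 253.6 CPM. The distances for Mpo were larger than those for Gfi1, and its 0 counts limit how closely any gene can follow it.

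Markers of cell types that such cultures could also hold were read beside these results. The 15 mast cell and basophil markers summed to 446.6 to 477.0 CPM in CD201+CD48-, 390.2 to 399.9 in CD201+CD48+ and 521.8 to 571.8 in CD201- libraries, most of it Gata2 and Srgn, which progenitors also express, and Cma1, Tpsb2 and Mcpt4 were at 0 in every library. Of this list 6 were tested, with 1 higher and 4 lower between CD201+CD48- and CD201- cells (all genes 24.2% and 23.9%). Between CD201+CD48+ and CD201- cells 0 were higher and 5 lower (all genes 14.8% and 14.3%). The counts were 2 and 0 between the CD201+ populations (all genes 9.05% and 6.31%). Slc6a4, the serotonin transporter gene and one of the 3 most abundant of the list, averaged 42.9, 0.885 and 3.13 CPM, and was higher in CD201+CD48- than in both other populations (log2 fold changes 3.77 ± 0.21 against CD201- and 5.59 ± 0.24 against CD201+CD48+, edgeR adjusted p = 1.57e-09 and 3.02e-10). Slc6a4 was thus the 1 marker called higher in the first of these comparisons. In the second it was among the lower markers (log2 fold change −1.82 ± 0.40, edgeR adjusted p = 0.00313). Cpa3, a mast cell protease gene, had 20 summed counts in CD201+CD48-, 35 in CD201+CD48+ and 93 in CD201- cells. Gzmb, a granzyme gene also made by mast cells, averaged 4.57, 1.65 and 31.9 CPM, so that Cpa3 and Gzmb were highest in CD201- cells and Slc6a4 was not. Lymphoid markers, 10 genes, summed to 1.26 to 3.88, 5.67 to 7.35 and 8.77 to 16.8 CPM, nearly all of it Nkg7. The part of these in the results for Mpo, Ctsg and Cst7 was not tested.

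On the other side, 11 mature neutrophil markers summed to 86.3 to 93.5, 71.8 to 80.0 and 54.8 to 63.9 CPM, mostly Padi4, with S100a9 and Retnlg at 0. The 11 monocyte and macrophage markers summed to 16.1 to 19.7, 8.32 to 14.6 and 9.96 to 11.2 CPM. The 10 dendritic cell markers summed to 128.2 to 141.7, 45.9 to 62.0 and 14.3 to 18.2 CPM, in the order of Lyz2, Ctss and Gfi1. Cd74 averaged 102.0, 34.7 and 6.47 CPM of these sums, while H2-Ab1 of the same list ran the other way, at 1.84, 2.54 and 4.95 CPM (log2 fold change −1.51 ± 0.41 for CD201+CD48- against CD201- cells, edgeR adjusted p = 0.00664). The part of the dendritic cell markers in the results for Lyz2, Ctss and Gfi1 was not tested. Megakaryocyte and platelet markers summed to 1802 to 1997, 436.4 to 456.9 and 682.2 to 829.7 CPM, and erythroid markers to 463.4 to 485.3, 451.3 to 484.5 and 428.7 to 466.4 CPM. The 10 HSC markers summed to 2597 to 2706 CPM in CD201+CD48-, 1420 to 1464 in CD201+CD48+ and 848.4 to 923 in CD201- libraries. This sum also moved with Gfi1, but not every marker did. Between CD201+CD48- and CD201- cells, 8 of the 9 tested were called higher and Meis1 was called lower, beside 24.2% and 23.9% of all genes. Meis1 averaged 392.2, 421.0 and 454.2 CPM (log2 fold change −0.21 ± 0.08, edgeR adjusted p = 0.0316). The sum includes Procr, whose protein CD201 set the gate, and Vwf, which the megakaryocyte and platelet sum also counts.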

How the data were processed

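Paired reads of 36 nt came from cDNA made with a SMARTer kit from over 5000 sorted cells per population, per the labels' protocols. The deposited table gives each gene symbol a whole-number count that the authors did not normalize; mm10 and DESeq2 are named in the submitters' processing notes, and the aligner, counter and annotation are not stated there. The authors' deposited normalized signal equals those counts divided by one size factor per library, and was used only for the limma alternative. Of the columns, 3 matched no sample and were left out.

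Genes were kept with filterByExpr (minimum count 10) and tested with edgeR 4.0.16 in R 4.3.3 (TMM scaling, quasi-likelihood F test, all 9 libraries in one fit, group as the only factor), with Benjamini-Hochberg adjustment over 11619 genes and a threshold of 0.05. SE is the log2 fold change over the square root of F. CPM uses TMM-scaled totals, and log2 CPM a prior of 2. Bounds use 3 counts over the group, and count ratios an exact 95% binomial interval that covers counting error only. The script was tested on simulated data. Alternatives were RLE factors, total counts alone, no filter, a minimum count of 30, DESeq2 1.42.0, limma 3.58.1 (pseudocount 1), a non-robust fit, 2 groups alone, a replicate block and each library left out.

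The members and lists were chosen with earlier results of these data known. Named from each wider list were up to 4 genes per comparison with the smallest p, from marker lists the 3 most abundant, with Csf2rb2, Lyz1 and the 5 genes nearest to Gfi1 and to Mpo. Other names (Prtn3, Elane, Csf1r, Cpa3, Gzmb, H2-Ab1, Siglecf, and the neighbours of Ctsg) were chosen after their values were seen. Coordinates and promoters are RefSeq's on GRCm38.p6, and exon lengths and transcripts come from GENCODE on a later build, used without coordinates. One gene that the naming rule selects is not reported here.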

Additional observations from a re-analysis of the deposited data

How the results depend on the processing

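Over 18 alternatives, the number of the 10 members called ranged from 8 to 9 between CD201+CD48- and CD201- cells, 6 to 8 between CD201+CD48+ and CD201- cells, and 4 to 5 between the CD201+ populations. The low values of the first pair came with a minimum count of 30, which left Ctsg and Irf8 untested, and the 8 with scaling by total counts alone, where Spi1 passed (adjusted p = 0.0360). Same-numbered libraries of different groups had correlations of their deviations from −0.113 to 0.0447, and differently numbered ones from −0.0722 to 0.100. With 3 libraries per group, these values cannot show whether libraries of the same number shared a culture or animal. With the number as a replicate block 9, 7 and 4 members were called. Scaling by total counts moved the median of all genes by 0.169, 0.134 and 0.036 on the log2 scale. It changed the split of higher and lower genes from 2807 and 2778 to 3974 and 1685, from 1723 and 1661 to 2701 and 851, and from 1052 and 733 to 1148 and 610. Between the CD201+ populations the split was 1789 and 1569 with 2 groups in the fit, 1787 and 1687 without CD201- replicate 3, and from 663 and 357 to 783 and 484 without a CD201+ library. Without CD201+CD48+ replicate 3, CD201+CD48+ against CD201- cells gave 1264 and 1069. With a minimum count of 30 the splits were 2519 and 2549, 1615 and 1518, and 941 and 660. The numbers of members called are to be read beside these splits.

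Every sign change concerned a log2 fold change that passed in neither fit. Between CD201+CD48+ and CD201- cells, Zeb2 was at 0.04578 with total counts alone, Csf3r at −0.00592 with RLE factors, −0.006229 with DESeq2 and −0.008203 with limma, and leaving out a library gave Csf3r from −0.05105 to 0.03394 and Csf2rb from −0.003816 to 0.1429. Between the CD201+ populations, Cebpg was at 0.0209 with total counts alone, and leaving out a library gave Cebpg from −0.07273 to 0.03377, Irf8 from −0.04436 to 0.3376 and Id1 from −0.2035 to 0.02028. The cause was not tested. Depth limits Irf8, Ctsg, Mpo, Cst7 and Cebpa, which had under 30 counts in at least 6 of 9 libraries.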
